A study of Mus musculus with 9 samples.

Results

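Vcam1 and 9 other cell adhesion molecules of the immunoglobulin (Ig) superfamily were followed in cells edited at Vcam1 and in their control. The 10 genes were Vcam1, Icam1, Alcam, Mcam, Bcam, Ncam1, L1cam, Cadm1, Cadm4 and Ceacam1, taken by symbol from the 55276 symbols of the gene count table, and all 10 passed the filter on low counts. The cells are PPTR cells, a line of mouse intrahepatic cholangiocarcinoma cells adapted to 2D culture from liver cancer organoids. Those organoids came from mice with the alleles Prom1CreERT2, Ptenflx/flx, Tp53flx/flx and Rosa-ZsGreen, in which Cre driven from Prom1 and activated by tamoxifen removes the floxed alleles and switches on a green reporter, so that every group here shares this origin. RNA was sequenced from control cells, which the sample labels call WT and the study Vcam1ctrl, and from the clones Vcam1KO1 and Vcam1KO2, each grown from a single cell after Cas9 had been directed to Vcam1 by a guide that matches exon 2. All groups were grown in DMEM with 10% fetal bovine serum and the labels name no further treatment; each gave 3 libraries from different passages. The 3 libraries of a group are passages of 1 line. The p values of each clone by itself therefore measure the spread between passages and not that between independently edited lines. With the clones pooled, the 6 clone libraries entered the test as 1 group. Its spread mixes that between passages with the difference between the clones. These 6 libraries come from 2 clones and are not 6 independent lines. Whether the control line was cloned or exposed to Cas9 is not given in the sources used here, so the edit, the cloning and Cas9 exposure cannot be told apart in a comparison of a clone with control.

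Ig adhesion molecules are single-span or lipid-anchored membrane proteins whose outer part is a row of Ig domains, often followed by fibronectin type III repeats. They bind integrins, matrix laminins or Ig partners on a neighbouring cell, and their short tails connect to the cortical cytoskeleton. Vcam1 and Icam1 are best known from endothelium, where inflammatory cytokines induce them and leukocytes bind to them; in liver, bile duct epithelium and tumour cells can carry several of the others.

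The edited exon is shown first, since the clones were defined by it. Exon 2 of Vcam1 is the second of 9 exons of the longest coding transcript (GRCm38 chr3:116128533-116128808, minus strand), it is 276 bases long, and all 276 bases are coding. The capitals mark the 5 codons of the stretch in the first Ig domain that binds integrin α4β1:

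Vcam1 exon 2: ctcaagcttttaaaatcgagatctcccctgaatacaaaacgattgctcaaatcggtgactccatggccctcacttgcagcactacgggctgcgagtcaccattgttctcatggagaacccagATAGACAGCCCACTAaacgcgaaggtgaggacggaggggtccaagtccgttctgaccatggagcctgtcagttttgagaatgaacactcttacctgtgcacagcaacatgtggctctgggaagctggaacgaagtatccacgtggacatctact

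Exon 5, which encodes a similar Ig domain further along the protein, also has 276 bases, and 179 of them (64.9%) are the same base at the same place, with a longest identical run of 20 bases. The 45 bases around the integrin-binding stretch are set against the same 45 positions of exon 5 (chr3:116120922-116120966, minus strand), with the same 15 positions in capitals, of which 11 are identical:

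Vcam1 exon 2 window: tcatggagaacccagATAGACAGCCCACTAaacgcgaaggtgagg

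Vcam1 exon 5 window: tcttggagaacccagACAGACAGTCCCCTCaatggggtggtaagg

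The promoters of the 3 members with the largest falls and of the member that rose in both clones (the first of its 2 annotated windows) are shown next, as 250 bases before to 50 bases after the annotated start site (RefSeq sequence, GRCm38.p6). Capitals mark the E-box CAGGTG or its reverse complement CACCTG, letters to which repressors such as Zeb1 and Snai1 are known to bind. Promoters were found for 7 of the 10 members, and those of Vcam1, Ncam1 and Cadm1 were not used here.

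Icam1, chr9:21015690-21015989, plus strand: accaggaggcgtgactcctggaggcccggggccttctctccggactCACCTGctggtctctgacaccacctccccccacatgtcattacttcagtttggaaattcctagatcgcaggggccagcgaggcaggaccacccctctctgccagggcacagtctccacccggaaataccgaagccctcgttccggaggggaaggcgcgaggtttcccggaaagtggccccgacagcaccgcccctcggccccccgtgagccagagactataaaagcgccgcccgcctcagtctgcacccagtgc

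Alcam, chr16:52453032-52453331, minus strand: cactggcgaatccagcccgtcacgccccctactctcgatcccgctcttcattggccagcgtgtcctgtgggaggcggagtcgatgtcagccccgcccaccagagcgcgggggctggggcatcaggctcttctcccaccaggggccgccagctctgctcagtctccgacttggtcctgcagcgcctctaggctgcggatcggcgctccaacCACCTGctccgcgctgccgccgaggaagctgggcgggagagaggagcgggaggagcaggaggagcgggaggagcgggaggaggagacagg

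Bcam, chr7:19770483-19770782, minus strand: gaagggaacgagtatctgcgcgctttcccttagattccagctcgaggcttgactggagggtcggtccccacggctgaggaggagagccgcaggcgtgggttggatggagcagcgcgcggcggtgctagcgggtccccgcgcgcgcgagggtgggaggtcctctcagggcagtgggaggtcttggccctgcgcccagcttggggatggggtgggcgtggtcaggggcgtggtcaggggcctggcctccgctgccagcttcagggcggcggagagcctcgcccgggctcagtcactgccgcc

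L1cam, chrX:73880741-73881040, minus strand: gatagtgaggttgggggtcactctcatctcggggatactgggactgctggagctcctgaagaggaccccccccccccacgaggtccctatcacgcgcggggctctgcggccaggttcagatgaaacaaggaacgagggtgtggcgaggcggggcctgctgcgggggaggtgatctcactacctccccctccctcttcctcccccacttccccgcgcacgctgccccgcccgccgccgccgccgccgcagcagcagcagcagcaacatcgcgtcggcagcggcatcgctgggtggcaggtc

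The motifs were chosen with results of these data known and searched on both strands. It stood once in each of the promoters of Icam1 (at -204 from the start site), Mcam (-212), Alcam (-40) and Cadm4 (8), that is in 4 of 7 members, and in 6640 of 32851 promoters of the same length (20.2%). No match was found in the windows of Bcam, L1cam and Ceacam1. The windows of Alcam, Bcam and L1cam lie wholly inside the gene positions given below. Starts further upstream in these genes were not searched, so a missing match holds for the window only. The letters GGNNNTTCC, a loose form of the NF-kB site, and their reverse complement GGAANNNCC matched in the Icam1 window at 2 places and in no other member, against 18.5% of all promoters. A match is a run of letters and not a measured binding site.

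The files hold estimated read counts per gene, here scaled to CPM, the count of a gene relative to the size of its library, with TMM factors. The libraries held between 53415907 and 125223073 counts, so that 3 counts, taken as the limit of detection, corresponded to 0.0240 to 0.0562 CPM. Differences were assessed by the quasi-likelihood test of edgeR on all 17672 genes that passed the filter, and a gene was called at a Benjamini-Hochberg adjusted p under 0.05. The labelled tumour origin was read against markers, and the clones lacked most of those that define bile duct epithelium. Of 10 bile duct and carcinoma epithelium markers, 9 reached 1 CPM in Vcam1ctrl cells, 4 in Vcam1KO1 cells and 3 in Vcam1KO2 cells. Their summed level was 13569 to 15250 CPM in Vcam1ctrl libraries, 10618 to 11078 in Vcam1KO1 libraries and 7635 to 11082 in Vcam1KO2 libraries, with Spp1 giving most of the sum in the clones. The defining keratins Krt8, Krt18 and Krt19 had means of 5377, 3408 and 2292 CPM in Vcam1ctrl cells and lay under 1 CPM in both clones, with Epcam and Krt18 at the limit of detection in Vcam1KO2 cells.

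**Figure D1:**
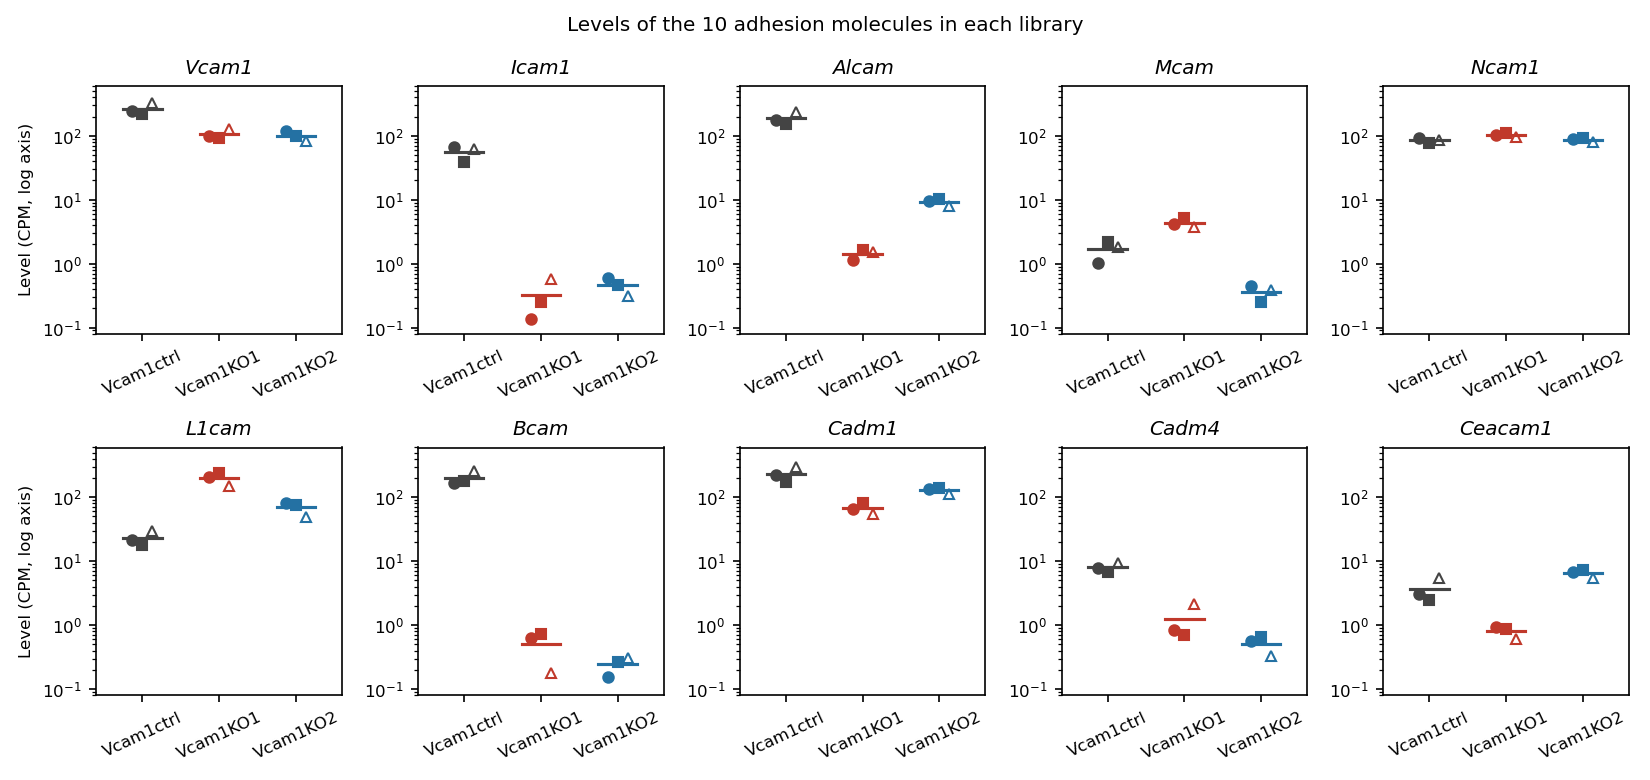
Level of each of the 10 adhesion molecules in every library, in CPM on a log axis that is the same in all panels. Points are libraries (circle, square and open triangle for replicates 1, 2 and 3) and lines are group means. Icam1, Alcam and Bcam sit far below control in both clones, L1cam sits above it, and Mcam and Ceacam1 sit on opposite sides of control in the 2 clones.

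Across both clones together, 6 of the 10 members were lower than in Vcam1ctrl cells (Vcam1, Icam1, Alcam, Bcam, Cadm1 and Cadm4), 1 was higher (L1cam) and 3 did not pass the test (Mcam, Ncam1 and Ceacam1). Of all genes tested in this comparison, 43% were called, 21.2% lower and 21.7% higher. The median log2 fold change of the members was -1.30, against 0.07 over all genes. In 3 members, Icam1, Alcam and Bcam, the level fell at least 10-fold, which 6.15% of all genes did. At least 2-fold changes passed the test in 7 members, against 28.3% of all genes. Clone libraries lay wholly below control libraries in 6 members and wholly above them in 1, where 23% and 21.2% of all genes did so, 44.2% together. Set against control by itself, Vcam1KO1 had 7 members lower and 2 higher, where 30% of all genes were called lower and 29.9% higher, 59.9% together. Vcam1KO2 also had 7 lower and 2 higher, where 26.1% of all genes were called lower and 25.3% higher, 51.4% together. All 10 members were free of overlap between Vcam1KO1 and control libraries, 7 below and 3 above, against 33.1% below, 32.9% above and 66% in all among all genes. For Vcam1KO2 9 members were free of overlap, 7 below and 2 above, against 31.4%, 30.7% and 62.1%. These 2 comparisons share the same 3 control libraries, so their counts are not independent of each other. The medians of the members were -1.98 in Vcam1KO1 and -1.80 in Vcam1KO2 cells, against 0.02 and 0.00 over all genes.

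**Figure D2:**
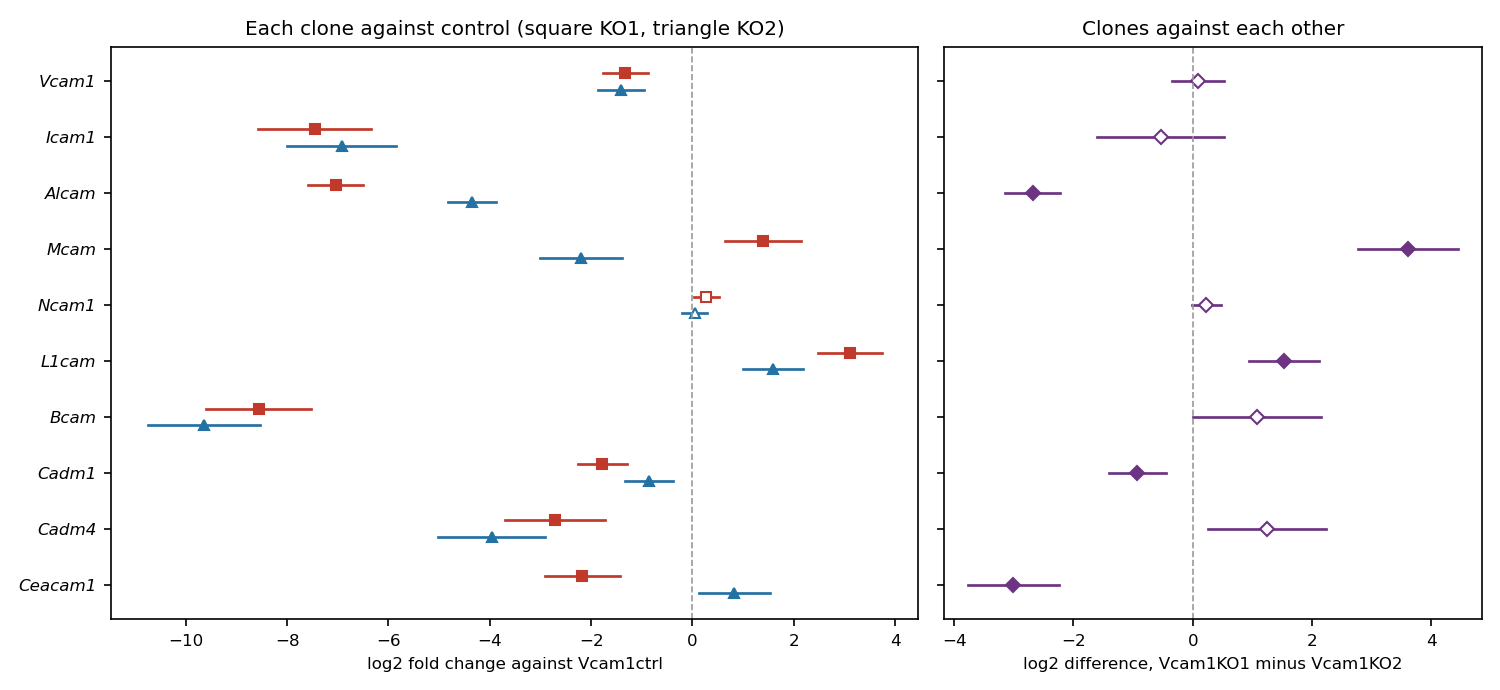
Log2 fold changes of the 10 members with 95% confidence intervals from the edgeR fit with 3 groups. On the left each clone is set against Vcam1ctrl (squares Vcam1KO1, triangles Vcam1KO2), on the right Vcam1KO1 against Vcam1KO2; filled symbols passed the test and open symbols did not. Mcam lies at 1.40 in Vcam1KO1 and -2.20 in Vcam1KO2, while the intervals for Vcam1 in both clones almost coincide.

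Vcam1 (chr3:116109949-116129688, minus strand), the ligand of integrins α4β1 and α4β7, stayed readily detectable in the clones. Its level was 248, 221 and 329 CPM in the Vcam1ctrl libraries, 98.8, 92.4 and 128 in Vcam1KO1 and 119, 99.4 and 83.0 in Vcam1KO2. All 6 clone libraries were under the lowest control library, and the libraries of the clones overlapped. The log2 fold change was -1.32 (95% interval -1.77 to -0.87) in Vcam1KO1 and -1.41 (-1.85 to -0.96) in Vcam1KO2 cells. The difference between the clones was 0.09 (-0.35 to 0.53), with an adjusted p of 0.75 in edgeR's test. These are levels of RNA summed over all transcripts of the gene and do not show how much of it carried an edit. The study reported loss of Vcam1 expression in both clones by quantitative RT-PCR and by flow cytometry. Protein is not measured by the counts used here. In bulk RNA, fewer cells with a transcript and less transcript per cell cannot be told apart, here and for every gene below.

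Icam1 (chr9:21015985-21028817, plus strand), the ligand of the leukocyte integrins LFA-1 and Mac-1, fell much further than Vcam1. Vcam1ctrl libraries held 65.5, 39.2 and 61.9 CPM, Vcam1KO1 libraries 0.135, 0.250 and 0.575, and Vcam1KO2 libraries 0.600, 0.467 and 0.311. The groups were separated by a wide gap, and the clone values rested on 9 to 36 counts per library, above the limit of detection. Icam1 was 176-fold lower in Vcam1KO1 (95% interval 81.4 to 381) and 121-fold lower in Vcam1KO2 cells (57.4 to 256), with adjusted p of 1.9e-06 and 3.3e-06 in edgeR's test. Vcam1KO1 replicate 3 held the highest Icam1 level of its clone, and without it the fall in that clone was 275-fold. Between the clones the log2 difference was -0.54 (interval -1.60 to 0.52, adjusted p = 0.39 in edgeR's test), and -1.19 without Vcam1KO1 replicate 3 (adjusted p = 0.059 in edgeR's test).

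Alcam, Mcam and Bcam share one layout of Ig domains and bind the like molecule on the next cell, the lymphocyte receptor CD6 or laminins. Alcam (chr16:52248996-52454074, minus strand) was a major adhesion transcript of the control, with 179, 154 and 234 CPM. It fell to 1.12, 1.66 and 1.5 CPM in Vcam1KO1 and to 9.61, 10.1 and 7.99 CPM in Vcam1KO2 libraries. Neither clone overlapped the control, nor did the clones overlap each other. The fall was 132-fold in Vcam1KO1 (95% interval 90.6 to 191) and 20.5-fold in Vcam1KO2 cells (14.8 to 28.4). Vcam1KO1 held 6.43-fold less Alcam RNA than Vcam1KO2 (interval 4.68 to 8.83, adjusted p = 2.1e-05 in edgeR's test).

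Bcam (chr7:19756131-19771016, minus strand), the Lutheran glycoprotein and a receptor for laminin α5, showed the largest fall of any member in both clones. Its level was 168, 176 and 255 CPM in Vcam1ctrl libraries, 0.629, 0.730 and 0.176 in Vcam1KO1 and 0.154, 0.269 and 0.311 in Vcam1KO2. The clone libraries, on 9 to 70 counts each, overlapped one another and lay far under the control. In Vcam1KO1 cells Bcam was 379-fold lower (95% interval 185 to 775) and in Vcam1KO2 cells 802-fold lower (372 to 1728), with adjusted p of 5.7e-07 and 6.0e-07 in edgeR's test. Among all genes tested, Bcam ranked 278th from the lowest log2 fold change in Vcam1KO1 and 177th in Vcam1KO2 cells. The log2 difference between the clones of 1.08 (0.01 to 2.15) had an adjusted p of 0.10 in edgeR's test, and of 0.0083, with a difference of 1.46, without Vcam1KO1 replicate 3.

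Mcam (chr9:44134469-44142727, plus strand), also called CD146 and known from vessels and melanoma, was low in all groups and moved in opposite directions in the clones. The control libraries held 1.0, 2.20 and 1.82 CPM. Vcam1KO1 libraries held 4.16, 5.26 and 3.75 CPM and lay above all of them, and Vcam1KO2 libraries held 0.446, 0.255 and 0.385 CPM and lay below all of them. Mcam was 2.64-fold higher in Vcam1KO1 (95% interval 1.57 to 4.43, adjusted p = 0.0050 in edgeR's test) and 4.61-fold lower in Vcam1KO2 cells (2.63 to 8.06, adjusted p = 7.0e-04). The difference between the clones was 12.2-fold (6.81 to 21.7). With the clones pooled, the log2 fold change of 0.51 had an interval from -1.69 to 2.71 and turned negative with limma-voom (-0.24) and when the contrasts of the clones were averaged (-0.40), so no direction is given for the pooled clones.

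L1cam and Ncam1 are best known from the nervous system. L1cam (chrX:73853778-73896105, minus strand), which drives axon growth and is found at the invasive edge of several carcinomas, was the only member that rose in both clones. It stood at 21.4, 17.7 and 29.8 CPM in Vcam1ctrl libraries, at 206, 240 and 151 in Vcam1KO1 and at 82.2, 76.6 and 48.6 in Vcam1KO2. The 3 groups did not overlap, with Vcam1KO1 the highest and control the lowest. The rise was 8.65-fold in Vcam1KO1 (95% interval 5.61 to 13.3) and 3.01-fold in Vcam1KO2 cells (2.0 to 4.53), with adjusted p of 1.2e-05 and 7.7e-04 in edgeR's test, and Vcam1KO1 exceeded Vcam1KO2 by 2.88-fold (1.91 to 4.33, adjusted p = 0.0019). Arhgap4, which overlaps L1cam on the same strand, lay between 0.175 and 0.766 CPM in all libraries.

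Ncam1 (chr9:49502136-49798925, minus strand), which binds itself on the next cell and carries polysialic acid, kept a high level in every group. Its level was 91.5, 75.7 and 86.5 CPM in Vcam1ctrl libraries, 102, 109 and 95.1 in Vcam1KO1 and 89.8, 91.8 and 79.7 in Vcam1KO2. The Vcam1KO1 libraries lay just above the others, and those of Vcam1KO2 overlapped the control. The log2 fold change was 0.27 in Vcam1KO1 (95% interval 0.02 to 0.52, adjusted p = 0.057 in edgeR's test) and 0.04 in Vcam1KO2 cells (-0.20 to 0.29, adjusted p = 0.77). With upper-quartile scaling the first of these passed the threshold (adjusted p = 0.048 in edgeR's test) and the second was -0.02, and without Vcam1KO1 replicate 3 the first had an adjusted p of 0.039. The upper ends of the intervals correspond to 1.43-fold and 1.22-fold.

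Cadm1 and Cadm4 are nectin-like molecules that hold epithelial and other cells side by side and bind one another or themselves. Cadm1 (chr9:47530173-47857637, plus strand), a known tumour suppressor of lung, was at 224, 173 and 296 CPM in Vcam1ctrl libraries, at 66.1, 80.8 and 55.2 in Vcam1KO1 and at 132, 141 and 111 in Vcam1KO2. No group overlapped another, and Vcam1KO2 lay between the others. The log2 fold change was -1.78 (95% interval -2.26 to -1.30) in Vcam1KO1 and -0.85 (-1.32 to -0.38) in Vcam1KO2 cells, with adjusted p of 8.5e-05 and 0.0074 in edgeR's test. The clones differed by -0.93 (adjusted p = 0.0075 in edgeR's test). For the pooled clones the adjusted p was 0.0099 with all libraries and 0.053 without Vcam1ctrl replicate 3, which held the highest level.

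Cadm4 (chr7:24482023-24504539, plus strand) was a low transcript throughout. The levels were 7.92, 6.70 and 9.43 CPM in Vcam1ctrl, 0.853, 0.710 and 2.12 in Vcam1KO1 and 0.565, 0.650 and 0.325 in Vcam1KO2 libraries. Both clones lay below the control, and Vcam1KO2 lay below Vcam1KO1. Cadm4 was 6.56-fold lower in Vcam1KO1 (95% interval 3.32 to 13) and 15.6-fold lower in Vcam1KO2 cells (7.50 to 32.3), and without Vcam1KO1 replicate 3 the fall in Vcam1KO1 was 10.2-fold. The log2 difference between the clones, 1.25 (0.25 to 2.24), had an adjusted p of 0.050117 in edgeR's test, just above the threshold, and crossed it with DESeq2 (0.018), upper-quartile scaling (0.040), no filter (0.038), a filter at a mean of 1 CPM (0.047), and without Vcam1KO1 replicate 1 (0.0497) or replicate 2 (0.026). With limma-voom its adjusted p was 0.11, and without Vcam1KO1 replicate 3 the difference was 0.60 with an adjusted p of 0.18 in edgeR's test.

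Ceacam1 (chr7:25461707-25477603, minus strand), a molecule of epithelial and liver cell surfaces whose tail can recruit the phosphatases Ptpn6 and Ptpn11, also separated the clones. Vcam1ctrl libraries held 3.06, 2.45 and 5.38 CPM, Vcam1KO1 libraries 0.943, 0.856 and 0.607, and Vcam1KO2 libraries 6.72, 7.27 and 5.40. Vcam1KO1 lay below the control and Vcam1KO2 just above it, its lowest library differing from the highest control library by less than the spread within either group. Ceacam1 was 4.52-fold lower in Vcam1KO1 cells (95% interval 2.70 to 7.55, adjusted p = 3.6e-04 in edgeR's test). In Vcam1KO2 cells it was 1.78-fold higher (1.10 to 2.88, adjusted p = 0.048), a call that was lost with upper-quartile scaling (0.062), no filter (0.072), a filter at 1 CPM (0.060) and without any 1 of 7 libraries (all but Vcam1ctrl replicate 3 and Vcam1KO1 replicate 3), where the adjusted p reached up to 0.15 in edgeR's test. The 8.03-fold difference between the clones (4.74 to 13.6, adjusted p = 2.0e-04 in edgeR's test) held in all of these fits. Ceacam2, whose sequence is nearly that of Ceacam1, so that the split of reads between them is uncertain, had at most 0.319 CPM. This was in Vcam1KO1 replicate 3, where Ceacam1 held 0.607 CPM. Ceacam2 had at most 2 counts in a control library and was called higher in both clones (adjusted p = 2.3e-04 in Vcam1KO1 and 7.0e-04 in Vcam1KO2 in edgeR's test). Set against a floor of 3 counts per library, it was at least 6.11-fold and 4.27-fold higher. How the split bears on the fall of Ceacam1 in Vcam1KO1 was not tested.

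The clones were also compared with each other directly. Of the 10 members, 2 were higher in Vcam1KO1 than in Vcam1KO2 (Mcam and L1cam), 3 were lower (Alcam, Cadm1 and Ceacam1) and 5 were not called, where 20.2% of all genes tested were called higher and 18.5% lower, 38.7% together. The libraries of the clones did not overlap in 7 members, 4 of them higher and 3 lower in Vcam1KO1, against 28.7% higher, 26.2% lower and 54.9% together among all genes. For Vcam1, Icam1, Ncam1, Bcam and Cadm4 the intervals of the difference are those given above, and a missed threshold there does not show that the clones were alike.

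To compare members with one another, levels were divided by the length of the longest coding transcript in kilobases (kb). Vcam1ctrl cells had Bcam at 82.3, Vcam1 at 76.7, Cadm1 at 51.6, Alcam at 31.3 and Icam1 at 21.9 CPM per kb, and each of these overlapped its neighbour in the order. Ncam1 followed at 12.9, apart from both neighbours, then L1cam at 4.48 with Cadm4 at 3.71, and Ceacam1 at 0.993 with Mcam at 0.560. In Vcam1KO1 cells the order was led by L1cam at 38.8 and Vcam1 at 30.7, which overlapped, followed by Ncam1 at 15.5 and Cadm1 at 15, and no other member passed 1.47 CPM per kb. Vcam1KO2 cells had Vcam1 at 28.9 and Cadm1 at 28.6 in front, then L1cam at 13.5 and Ncam1 at 13.3, and no other member passed 1.77. Dividing by the mean length of all coding transcripts instead put Ncam1 above Icam1 in Vcam1ctrl cells and Cadm1 above Vcam1 in Vcam1KO2 cells.

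**Figure D3:**
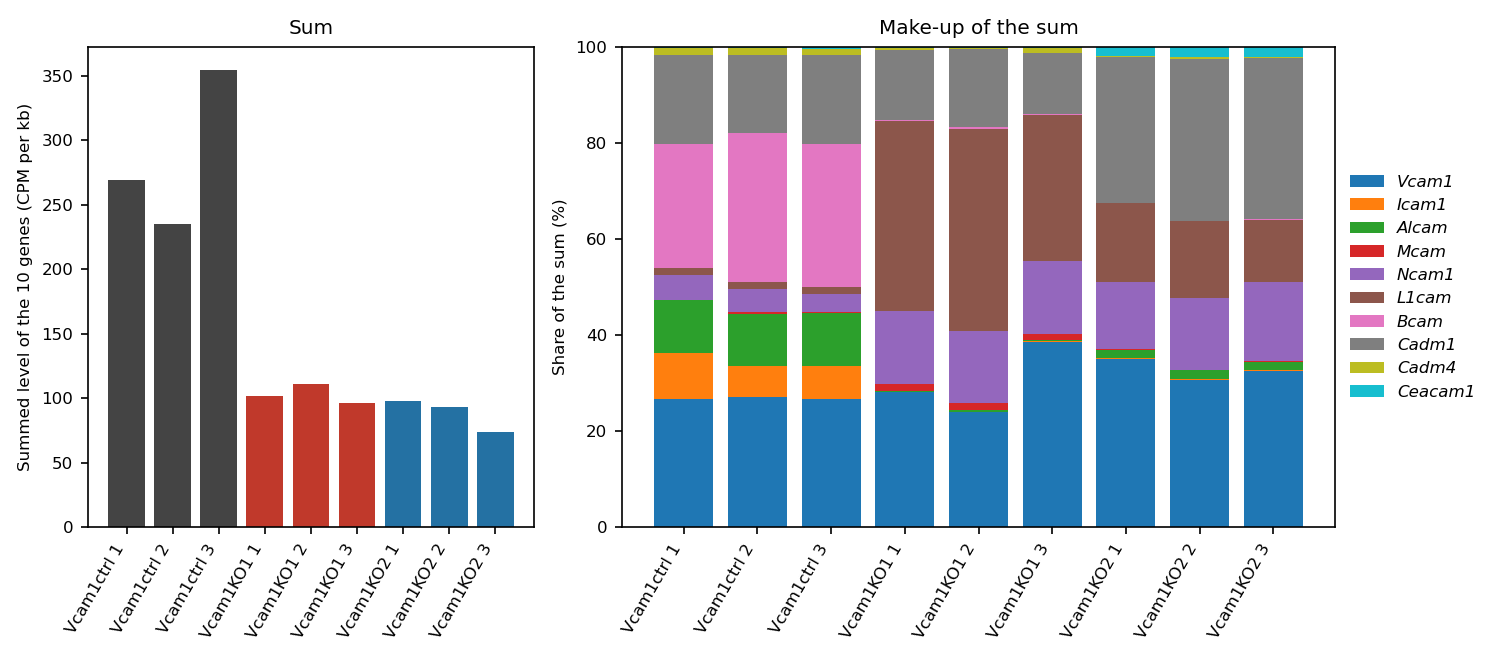
Left, the summed level of the 10 members in each library, in CPM per kb of longest coding transcript, as bars from 0. Right, the share of each member in that sum, in percent. The control sum is 235 to 355 and no clone library passes 111; Bcam, Alcam and Icam1 nearly vanish from the clones, L1cam leads in most Vcam1KO1 libraries and Cadm1 takes about the share of Vcam1 in Vcam1KO2 libraries.

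The sum of the 10 members was 286 ± 61.6 CPM per kb (SD, n = 3) in Vcam1ctrl, 103 ± 7.63 in Vcam1KO1 and 88.2 ± 12.8 in Vcam1KO2 cells, and the control libraries lay above all others. Bcam gave the largest part of the fall, with a change of -82.1 CPM per kb in Vcam1KO1 and -82.2 in Vcam1KO2, beyond that of Vcam1 itself with -46.0 and -47.7. The share of Vcam1 was 26.8% ± 0.225 in Vcam1ctrl, 30.2% ± 7.47 in Vcam1KO1 and 32.7% ± 2.21 in Vcam1KO2 cells (SD, n = 3). The Vcam1KO2 libraries, at 30.7% to 35.1%, lay wholly above the control at 26.6% to 27.0%, and those of Vcam1KO1 lay on both sides of it. The share of Bcam went from 28.7% to 0.200% and 0.119%, and that of L1cam from 1.55% to 37.4% and 15.1%. Ncam1, whose level hardly moved, went from 4.6% to 15.1% and 15.2%. With mean transcript lengths the sums were 477, 184 and 157 CPM per kb and the Vcam1 shares 24.8%, 26.1% and 28.3%.

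The likeness of patterns was described by Pearson's r of log2 CPM over the 9 libraries, which fall into 3 clusters, so that an r mostly reflects the 3 group means. Closest to Vcam1 among 10877 genes with a mean of at least 5 CPM were Porcn (r = 0.992), an enzyme that acylates Wnt proteins, Tshz2 (0.989), a zinc finger factor, and Mapt (0.987), the microtubule protein tau. An r of at least 0.9 with Vcam1 was shared by 661 of these genes. Among members, Vcam1 was most like Icam1 (0.963), Cadm4 most like Vcam1 (0.960), Bcam most like Icam1 (0.952), and Alcam and Cadm1 most like each other (0.949), as were L1cam and Ncam1 (0.821). Ceacam1 was most like Cadm1 (0.723), and Mcam had no close counterpart (Ncam1, 0.475).

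Other Ig adhesion molecules were counted from 8 family lists of 75 genes, of which 54 passed the filter. With the clones pooled, 20 were higher, 20 lower and 14 not called, with a median log2 fold change of 0.32 against 0.07 over all genes, where 21.7% of all genes were called higher and 21.2% lower. Nectins and nectin-like molecules, the relatives of Cadm1 and Cadm4 that seed adherens junctions, had 5 of 7 lower and 0 higher (median -1.44), among them Pvr and Nectin2, which were picked out after their values were seen. The JAM and CTX family, which includes tight junction molecules, had 6 of 11 lower and 3 higher (median -0.71). The list of other ICAM and vascular molecules had 2 of 5 lower and 0 higher (median -0.95), and the CEACAM family 2 of 4 lower and 1 higher (-1.17).

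Other lists held more rises than falls. Of the 10 genes of the L1, NCAM and contactin family 5 passed the filter, 4 of them higher and 1 lower, with a median of 3.93. In 2 of these 4 all clone libraries lay above the control. Set apart by clone, 4 were higher in Vcam1KO1 and 2 in Vcam1KO2 cells. Of all genes, 29.9% and 25.3% were called higher there, against 21.7% with the clones pooled. The filter can keep a gene through the group where it is high, so these counts and the median partly reflect it. Cntn2, named after its values were seen, had 135 to 967 counts per Vcam1KO1 library, 0 to 2 in Vcam1ctrl and 1 to 4 in Vcam1KO2. In the same direction, the large molecules with Ig and fibronectin type III repeats had 8 of 14 higher and 2 lower (median 1.28). Of the IgLON and Thy1 list 1 gene of 6 passed the filter, Iglon5, named after its values were seen, which was higher with the clones pooled (log2 fold change 4.55). Its log2 fold change was 2.32 in Vcam1KO1 and 5.38 in Vcam1KO2 cells. The libraries of the clones did not overlap, and the log2 difference of Vcam1KO1 minus Vcam1KO2 was -3.06 (adjusted p = 5.2e-06 in edgeR's test). No test compared one list with another.

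By a fixed rule the 4 largest falls and 4 largest rises among the Ig and partner lists are named. Cadm3, a nectin-like relative of Cadm1, stood at 72.1, 61.3 and 39.5 CPM in Vcam1ctrl libraries and at 0 to 4 counts in each clone library. It had 15490 counts over the control libraries against 4 over Vcam1KO1 and 1 over Vcam1KO2, and for the latter the ratio was 11775 with a counting interval of 2113 to 465106. Vsig1, a junction molecule of stomach epithelium, stood at 27.6, 29.7 and 47.1 CPM in the control and had 0 counts in Vcam1KO1, at least 841-fold lower when set against a floor of 3 counts per library, and 0 to 4 counts in Vcam1KO2 libraries. Mpzl2, an epithelial adhesion molecule, fell from 21.9 ± 2.33 CPM (SD, n = 3) by 7.92 on the log2 scale. Timp3, which inhibits shedding proteases such as Adam17, fell by 5.01 from 14.8 ± 3.83 CPM.

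Both polysialyltransferases that act on Ncam1 were measured, and they moved oppositely. St8sia2, one of the 4 largest rises, had 1 count over the 3 control libraries and rose to 4.37, 3.47 and 8.62 CPM in Vcam1KO1 and to 19.3, 19.7 and 20.2 CPM in Vcam1KO2 libraries. The ratio of counts to control was 1338 in Vcam1KO1 (counting interval 240 to 52898) and 5113 in Vcam1KO2 (917 to 202023), and the interval covers counting error only. The clones did not overlap, and the log2 difference of Vcam1KO1 minus Vcam1KO2 was -1.85 (adjusted p = 0.0022 in edgeR's test). St8sia4, named after its values were seen, fell from a mean of 1.45 CPM in Vcam1ctrl to 0.120 and 0.0866 CPM in the clones (log2 fold change -3.80 with the clones pooled). Their substrate Ncam1 differed from control by the small amounts given above.

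The remaining rises of the rule were Itga9, Sdk1 and Boc. Itga9, an integrin chain that pairs with Itgb1 and binds Vcam1 among other ligands, stood at 0.135, 0.0554 and 0.215 CPM in Vcam1ctrl libraries, at 5.90, 4.85 and 4.49 in Vcam1KO1 and at 58.3, 60.6 and 44.9 in Vcam1KO2. No group overlapped another, and the log2 fold changes were 5.15 in Vcam1KO1 and 8.58 in Vcam1KO2 cells (adjusted p = 1.3e-06 and 1.9e-07 in edgeR's test). Sdk1, a synaptic adhesion molecule, rose mainly in Vcam1KO2, from 0.0935 CPM in Vcam1ctrl to 0.393 in Vcam1KO1 and 21.3 in Vcam1KO2 cells. Boc, a co-receptor for hedgehog proteins, rose from 0.679 CPM to 28.3 and 14.2 CPM.

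The classical Vcam1 receptor was then read from its chains. Itga4 was low in every group, at 0.446, 0.517 and 0.228 CPM in Vcam1ctrl, 0.329, 0.584 and 0.750 in Vcam1KO1 and 0.514, 0.240 and 0.281 in Vcam1KO2 libraries, and the groups overlapped (log2 fold change 0.18, adjusted p = 0.77 in edgeR's test). Itgb1 was high in every group, with means of 566 ± 14.2, 617 ± 43.0 and 561 ± 73.9 CPM (SD, n = 3), and overlapped as well (0.06, adjusted p = 0.74 in edgeR's test). Itgb7, which pairs with Itga4 and was named after its values were seen, was lower than control in Vcam1KO1 (log2 fold change -3.23) and higher in Vcam1KO2 cells (3.76). Of the 14 integrin and extracellular partners, 10 passed the filter. With the clones pooled, 4 were higher, 1 lower and 5 not called, with a median of 2.42, beside the 43% called among all genes. Vcam1KO1 by itself had 4 higher and 3 lower (median 0.41), and Vcam1KO2 6 higher and 1 lower (median 2.73). Of all genes, 59.9% and 51.4% were called there. The filter can keep a gene through the group where it is high, so these counts and medians partly reflect it. The 1 lower with the clones pooled was Lama5, the laminin chain bound by Bcam, named like Gfra1 and Fgfr1 after the values were seen. Lama5 had means of 1209 CPM in Vcam1ctrl, 373 in Vcam1KO1 and 153 in Vcam1KO2 cells. Its libraries stood at 1200, 776 and 1650 CPM in Vcam1ctrl, 162, 194 and 764 in Vcam1KO1 and 186, 172 and 102 in Vcam1KO2. Gfra1 and Fgfr1, receptors that work with Ncam1 and L1cam, rose by 4.90 and 3.34 on the log2 scale.

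**Figure D4:**
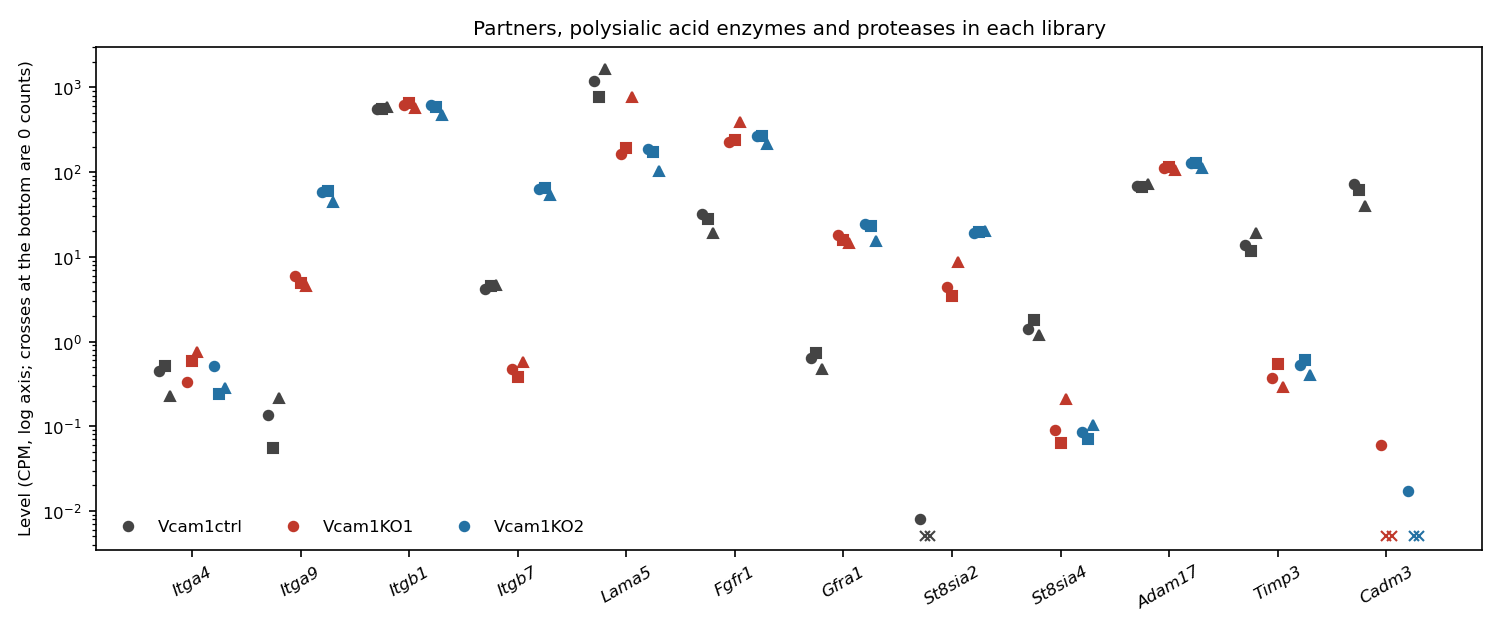
Level in every library of selected partners and modifiers of the members, in CPM on a log axis, with Vcam1ctrl in grey, Vcam1KO1 in red and Vcam1KO2 in blue; circle, square and triangle are replicates 1, 2 and 3, and crosses at the lower edge are libraries with 0 counts. Itga4 and Itgb1 overlap between all groups, St8sia2 appears in the clones while St8sia4 falls, and Itgb7 lies on opposite sides of control in the clones.

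Cytoplasmic partners, the proteins that tie the tails of the members to actin, spectrin or scaffolds, had 5 of 15 higher, 5 lower and 5 not called (median -0.05). Ezr, which links Vcam1 and Icam1 tails to actin and was named after its values were seen, fell by 2.86 on the log2 scale. Shedding proteases and polysialic acid enzymes had 3 of 10 higher and 4 lower (median -0.09), and Adam17, the protease that sheds Vcam1 and L1cam from the surface, rose from 69.3 CPM in Vcam1ctrl to 111 and 123 CPM in the clones (log2 fold change 0.76). Of 16 genes of the cytokine pathways that induce Vcam1 and Icam1, 4 were higher, 2 lower and 10 not called with the clones pooled (median -0.11). Vcam1KO1 by itself had 4 higher and 6 lower, where 59.9% of all genes were called, and Vcam1KO2 4 higher and 2 lower, where 51.4% were. The total called in Vcam1KO1 lies close to the share over all genes. Il1r1 was among those that rose, by 1.66. Of the NF-kB subunits, Rela had log2 fold changes of 0.015 in Vcam1KO1 and 0.37 in Vcam1KO2 cells, the latter called higher (adjusted p = 0.045 in edgeR's test). Relb and Nfkb2 were called lower in Vcam1KO1 (-1.61 and -1.69) and not called in Vcam1KO2 cells (-0.40 and -0.33). Nfkb1 was called in neither clone (-0.15 in Vcam1KO1 and 0.29 in Vcam1KO2). The genes of these lists beyond the rule were picked out after their values were seen. These lists together held 55 genes, of which 51 passed the filter, 16 were higher and 12 lower, beside the 43% called among all genes (median 0.16 against 0.07).

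Markers of cells that use these molecules elsewhere were read beside the members. Endothelial markers summed to 11.1 to 14.8 CPM in Vcam1ctrl, 4.85 to 6.41 in Vcam1KO1 and 1.97 to 2.64 in Vcam1KO2 libraries, 1 of the 10 (Egfl7) reached 1 CPM in any group, and Sox17 was at 0 in all libraries. Haematopoietic markers summed to 7.84 to 21.0, 9.21 to 12.1 and 7.11 to 9.85 CPM, with Tyrobp at 0 in all libraries. Cd68 and Csf1r gave most of the latter sum in control, while the defining markers Cdh5, Kdr and Ptprc had means under 1 CPM in every group, where Vcam1 and Icam1 stood at 266 and 55.5 CPM in Vcam1ctrl cells. The haematopoietic marker Lyz2, named after its values were seen, had means of 0.114 CPM in Vcam1ctrl, 4.08 in Vcam1KO1 and 0.219 in Vcam1KO2 cells. It was called higher in Vcam1KO1 (log2 fold change 5.16, adjusted p = 2.0e-05 in edgeR's test). Fibroblast and stellate cell markers went from 431 to 836 CPM in Vcam1ctrl to 10474 to 13048 in Vcam1KO1 and 6219 to 7531 in Vcam1KO2 libraries, 8 of the 10 reached 1 CPM in each group, Lum and Lrat were at 0 in Vcam1ctrl, and Lrat stayed at or near 0 in the clones. Col1a1 gave most of the sum in the clones, with means of 99.4 CPM in Vcam1ctrl, 8530 in Vcam1KO1 and 4735 in Vcam1KO2 cells. Of the 8 that passed the filter, 5 were called higher and 1 lower in Vcam1KO1, and 6 higher and 0 lower in Vcam1KO2. Among all genes, 29.9% and 25.3% were called higher there. The 1 called lower was Dcn, which went from 74.6 to 4.34 CPM in Vcam1KO1. The part of these marker levels in the changes of the members was not tested.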

How the data were processed

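The authors sequenced mRNA from 3 libraries each of Vcam1ctrl, Vcam1KO1 and Vcam1KO2 cells in stranded, paired-end libraries. They obtained estimated counts with kallisto 0.46.1, set to the strand of the kit, on transcripts of GRCm38, and the deposited table gives these estimated counts by gene symbol, not normalized; how transcripts were summed is not given in the sources used here. All 55276 rows were named, 0 values were not whole, and the values entered as counts. Groups were read from the labels. The libraries held 53415907 to 125223073 counts, and standard errors and intervals of fold changes include the spread between libraries.

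TMM scaling and filterByExpr of edgeR 4.0.16 in R 4.3.3 left 17672 genes. The combined comparison (6 clone against 3 control libraries, as in the study) had a fit with 2 groups, and the others a fit with 3. Each p of a gene comes from the quasi-likelihood test of edgeR, adjusted by Benjamini-Hochberg over all genes tested. Levels are CPM with TMM factors; a prior count of 2 was added for log2 levels. The limit of detection was set at 3 counts in each library of a group. Counting intervals are exact at 95%. Positions and lengths follow GENCODE M21 on GRCm38, a different release from the one used for counting.

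A few genes and 2 lists are not reported here. The members and lists were chosen with earlier results of these data known. Named genes were all members, Itga4, Itgb1, and the 4 highest and 4 lowest log2 fold changes of the other lists among called genes whose mean reached 5 CPM and whose clone and control libraries did not overlap; other genes were named after their values were seen. Alternatives were limma-voom (limma 3.58.1, the study's test), DESeq2 1.42.0, upper-quartile factors, no filter, a filter at a mean of 1 CPM, each library left out, the average of the clones' contrasts, and mean transcript length. In a simulation where 200 genes changed 2-fold, the combined comparison called 145 of them, all in the right direction, with 2 false calls among 17255 genes. In the same kind of simulation the comparisons of Vcam1KO1 and Vcam1KO2 with control called 108 of 200 each and that of the clones 104, with 2 false calls each. In the data themselves, 43% of all genes were called in the combined comparison and 38.7% between the clones. How many changes are recovered or falsely called at such shares was not tested.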

Additional observations from a re-analysis of the deposited data

Results flagged for a closer look

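In 5 members the change against Vcam1ctrl cells differed between the clones, by edgeR's test of the difference itself in the fit with 3 groups. The log2 difference of Vcam1KO1 minus Vcam1KO2 was -2.68 for Alcam (adjusted p = 2.1e-05 from edgeR), -0.93 for Cadm1 (adjusted p = 0.0075 from edgeR), -3.00 for Ceacam1 (adjusted p = 2.0e-04 from edgeR), 1.52 for L1cam (adjusted p = 0.0019 from edgeR) and 3.60 for Mcam (adjusted p = 1.2e-04 from edgeR). In each of them the 3 libraries of one clone lay wholly above those of the other. For Alcam, Cadm1 and L1cam both clones moved in the same direction from control and by different amounts, and for Mcam they moved in opposite directions. Ceacam1 fell in Vcam1KO1 cells, and its rise in Vcam1KO2 cells (adjusted p = 0.048 from edgeR) was lost under 3 other settings and without any 1 of 7 libraries (adjusted p up to 0.15). With 1 clone on each side, the clone and the edit it carries cannot be told apart.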

How the results depend on the processing

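The number of members called was 7 in the combined comparison under all alternatives except without Vcam1ctrl replicate 3 (6), 9 to 10 for Vcam1KO1, 8 to 9 for Vcam1KO2 and 5 to 6 between the clones. The number of all genes called in the combined comparison was 5583 to 10464 around 7591, and of the wider Ig lists 33 to 47 around 40. Directions that turned were all of changes that had not passed the test. Mcam in the combined comparison, 0.51 as reported, was -0.24 with limma-voom and -0.40 as the average of the clones' contrasts. Ceacam1 in the combined comparison, -0.00 as reported, was -0.65 with limma-voom and -0.67 as the average of the clones' contrasts (adjusted p = 0.052 from edgeR), and ranged from -0.32 to 0.39 when 1 library was left out. Ncam1 in Vcam1KO2 cells, 0.04 as reported, was -0.024 with upper-quartile factors and ranged from -0.057 to 0.099 with 1 library left out. Vcam1 between the clones, 0.09 as reported, ranged from -0.071 to 0.18. The cause was not tested. The median of all genes in the combined comparison was 0.12 with DESeq2 and 0.11 with no filter, against 0.07. Levels per kb of 23 of 30 member and group pairs moved by more than 1 SD with mean transcript length. No paired analysis was possible because the labels give running library numbers and no replicate number shared between groups. Folds of Icam1 and Bcam rest on few counts in the clones, 9 to 36 and 9 to 70 per library.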
